A study of Mus musculus with 3 samples.

Results

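The 10 genes described here encode proteins of blood clotting and clot breakdown: F3, F7, F10, F13a1, Thbd, Plaur, Plau, Serpinb2, Thbs1 and Fn1. They were taken by symbol from the 27998 gene rows of 3 single-cell RNA libraries, and all 10 were found. The libraries hold myeloid cells of C57BL/6J mice with subcutaneous B16-F10 melanoma, sorted as CD45-positive cells lacking CD90, NK1.1, Ly6G, B220 and SigF and carrying CD11b, CD11c or both. The first library is blood of tumor-bearing wild-type control mice (control blood), the second a tumor labelled wild type with control treatment (control tumor), and the third a tumor labelled FoxP3 DTR with the treatment Treg-depleted (Treg-depleted tumor). FoxP3 DTR names a diphtheria toxin receptor driven from the Foxp3 locus, which lets regulatory T (Treg) cells be removed. Each group is 1 library, the number of animals in it is not given in the sources used here, and genotype and treatment cannot be told apart. Tumors were digested with collagenases and DNase while blood had its red cells lysed, so tissue and handling cannot be told apart either. Foxp3 had 0, 1 and 0 UMIs in the kept cells, a sort without T cells, so it checks no label.

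Clotting starts when tissue factor (F3) on a cell surface binds factor VII (F7) and the pair activates factor X (F10), which leads to thrombin and fibrin. Factor XIII A chain (F13a1) crosslinks fibrin, and thrombomodulin (Thbd) turns thrombin into an activator of the anticoagulant protein C. Urokinase (Plau), held by its receptor (Plaur) and inhibited by Serpinb2, makes plasmin, which dissolves fibrin. Fibronectin (Fn1) and thrombospondin 1 (Thbs1) are adhesive glycoproteins of clots and matrix, and monocytes and macrophages are known sources of many of these proteins.

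Promoters are shown for 3 of the genes, chosen after their values were seen because these values lie apart: F3 and Plaur were higher in control tumor macrophages than in blood classical monocytes, and F13a1 was lower. Each is the 250 bases before the transcription start, read 5′ to 3′ from RefSeq on GRCm38.p6. Capitals mark the AP-1 motif TGACTCA, the GC box GGGCGG and the PU.1/ETS core GAGGAA, searched on both strands, with overlapping GC boxes counted separately. The coordinates are chr3:121723287-121723536 on the + strand for F3, chr7:24462233-24462482 on the + strand for Plaur and chr13:37050245-37050494 on the - strand for F13a1.
F3: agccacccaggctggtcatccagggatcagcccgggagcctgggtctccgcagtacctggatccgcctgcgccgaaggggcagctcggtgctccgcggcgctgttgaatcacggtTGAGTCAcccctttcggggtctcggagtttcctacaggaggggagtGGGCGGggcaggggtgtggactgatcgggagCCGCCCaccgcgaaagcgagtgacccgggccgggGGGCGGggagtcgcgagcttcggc
Plaur: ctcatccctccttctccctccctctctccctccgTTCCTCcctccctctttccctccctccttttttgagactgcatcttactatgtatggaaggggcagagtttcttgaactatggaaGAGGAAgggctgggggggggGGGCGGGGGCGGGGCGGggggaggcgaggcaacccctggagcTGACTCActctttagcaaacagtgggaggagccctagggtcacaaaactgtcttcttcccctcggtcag
F13a1: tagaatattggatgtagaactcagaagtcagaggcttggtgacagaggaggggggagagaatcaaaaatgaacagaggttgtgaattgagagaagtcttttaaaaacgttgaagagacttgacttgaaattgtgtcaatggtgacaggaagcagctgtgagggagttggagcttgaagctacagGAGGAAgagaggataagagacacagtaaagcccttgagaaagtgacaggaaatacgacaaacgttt
The AP-1 motif stood at bases -135 to -129 of F3 and -69 to -63 of Plaur, counted back from the start, and these letters are not in the F13a1 window. F3 and Plaur held 3 GC boxes each. Plaur held 2 PU.1/ETS cores and F13a1 held 1. Of 32851 RefSeq promoter windows of this length, 4.46% hold TGACTCA, 32.7% GGGCGG and 23.3% GAGGAA. Promoters matched 6 of the 10 genes. F7, F10 and Serpinb2 also matched, with no TGACTCA in their windows, and Thbd, Plau, Thbs1 and Fn1 were without a match. F7 was also higher in control tumor macrophages than in blood classical monocytes, 29.9-fold against 4.00-fold for Plaur, and could have been shown by the same reason. Whether the AP-1 motif goes with the levels was not tested, and the choice of these promoters cannot show it.

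Barcodes needed 1000 or more UMIs, 400 or more genes and a mitochondrial share of UMIs no higher than 10%, which left 5550 cells of control blood, 4443 of control tumor and 4434 of Treg-depleted tumor, with medians of 3550, 6452 and 3820 UMIs per cell. The libraries total 22944387, 42493416 and 23291061 UMIs. Between 27 and 36 barcodes are shared by each pair of libraries, where 26.7 to 33.4 would be shared in random draws. Cells were gated by summed marker genes, none of them among the 10. Blood held 2965 classical and 920 nonclassical monocytes, the control tumor 601 monocytes and 2536 macrophages, and the Treg-depleted tumor 656 and 2263. Cells whose 2 lists lay within 2-fold of each other form an in-between class of 557, 586 and 669 cells, 12.5%, 15.7% and 18.6% of the monocyte-macrophage lineage, so these classes are ranges along a gradient. In the median classical cell the classical list had 71.3 and the nonclassical list 3.88 UMIs per 10000, against 9.23 and 66.2 in the median nonclassical cell. In the median tumor monocyte the classical list had 43.0 (control) and 86.8 (Treg-depleted) and the macrophage list 7.07 and 8.40. In the median tumor macrophage the classical list had 5.04 and 11.5 and the macrophage list 114 and 102.

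Levels are given as CPM, UMIs per 1000000 UMIs of the class, with 95% exact Poisson intervals, and shares of cells with exact (Clopper-Pearson) intervals. Shares were taken after thinning every cell to 1000 UMIs, which removed no kept cell. With 1 library per group these intervals cover counting error only, not the spread between animals, and no difference could be tested. A value is called higher or lower here where the CPM ratio is at least 2-fold.

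The factors that start clotting were scarce in blood monocytes apart from F10. Against classical monocytes, F7 was higher in control tumor monocytes and macrophages, F10 in the tumor monocytes and F3 in the tumor macrophages. F3 (ENSMUSG00000028128, chr3:121723537-121735048) had 0 UMIs in classical, in-between and nonclassical blood monocytes, and the limit used for a count of 0, 3 UMIs over the class, is 0.253 CPM in the classical cells. It stood at 1.56 CPM (0.506 to 3.63, from 5 UMIs) in control tumor monocytes and 3.05 (2.42 to 3.80) in control tumor macrophages. In the Treg-depleted tumor it stood at 8.17 (5.34 to 12) in monocytes and 14.7 (12.3 to 17.3) in macrophages. The intervals of the 2 tumors do not overlap in either class. At the limit of 3 UMIs, F3 in control tumor macrophages was 12.1-fold above blood classical monocytes. That log2 ratio is 3.59 with a lower interval end of 3.26, and the lowest value in the alternative processings was 2.10. For F3 the values went against calling these monocyte genes. Its highest levels were in neutrophil-gated cells of the tumors, 234 CPM in 40 cells of the control tumor (19 UMIs, interval 141 to 365) and 215 CPM in 176 cells of the Treg-depleted tumor (170 to 268). In the control tumor 7 of the 40 cells held the 19 UMIs and 1 cell had 12 of them, a concentration that the Poisson interval does not cover. In the Treg-depleted tumor 40 of the 176 cells held 80 UMIs, with at most 6 in a cell. After thinning, 13.1% of those 176 neutrophils had an F3 UMI (8.47 to 19.0; 22.7% unthinned, median 1636.5 UMIs), against 1.59% of macrophages (1.12 to 2.20; 4.51% unthinned, median 3726 UMIs). Blood neutrophils had 1 F3 UMI in 212 cells. The sort was against Ly6G, a neutrophil marker, so the neutrophils here are those that passed it. Barcodes with 10 to 100 UMIs, taken as free RNA, held F3 at 27.8 CPM in the Treg-depleted tumor and 4.37 in the control tumor.

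In the Treg-depleted tumor the F3 level differed between clusters of macrophages. Cluster 3, 1337 cells led by Lepr, Serpinb2 and Mmp12, had 24.8 CPM, while cluster 1, 1619 cells led by Retnla, Rnase2a and Mrc1, had 4.25 CPM (2.84 to 6.10). The 10 genes were left out of the clustering itself. Cluster 3 held 67.9% of the lineage's 187 F3 UMIs and 32.1% of all its UMIs. The 55 control tumor cells of cluster 3 had 39.7 CPM, from 12 UMIs (20.5 to 69.3).

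F7 (ENSMUSG00000031443, chr8:13026034-13035809), the protease that tissue factor binds, stood at 1.01 CPM in classical and 0.866 in nonclassical blood monocytes, from 12 and 2 UMIs. In the control tumor it was 6.23 (3.80 to 9.62) in monocytes and 30.3 (28.2 to 32.5) in macrophages, and in the Treg-depleted tumor 36.5 (30.1 to 43.7) and 89.8 (84.0 to 96.0). Each step from blood monocyte to tumor monocyte to tumor macrophage was thus upward, and the Treg-depleted tumor lay above the control tumor in both classes, by 5.85-fold and 2.96-fold. The monocyte fold rests on a low control level: at the estimated free-RNA share of 13.9%, free RNA would give 4.26 of the 6.23 CPM. That share was estimated from neutrophil marker genes, and the 1.80% of Treg-depleted monocytes from red-cell genes, so the 2 shares were not estimated alike. Csf3r, a neutrophil marker used, stood at 36.1 CPM in control tumor monocytes, and any expression of their own would raise the share. The log2 ratio of F7 between tumors in monocytes, 2.55, becomes 3.95 with free RNA subtracted and 1.69 with doubled gate thresholds. With free RNA subtracted the log2 ratio of control tumor monocytes to classical monocytes falls from 2.62 to 1.32. Its thinned share was 8.84% of Treg-depleted macrophages against 1.12% of that tumor's cDC2 cells, conventional dendritic cells with a median of 5410 UMIs, and 1.70% of its neutrophils.

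F10 (ENSMUSG00000031444, chr8:13037308-13056676) lies 1498 bases downstream of F7 on the same strand and encodes the protease activated by tissue factor and factor VII. It was already counted in blood: 103 CPM (97.3 to 109) in classical, 83.9 in in-between and 55.4 (46.3 to 65.9) in nonclassical monocytes, a ratio below 2-fold. Control tumor monocytes had 359 (339 to 380) and macrophages 156 (151 to 161), and Treg-depleted monocytes had 689 (660 to 718) and macrophages 408 (395 to 421). In contrast to F7, F10 was 2.30-fold lower in macrophages than in monocytes of the control tumor. In the Treg-depleted tumor the difference was 1.69-fold in the same direction, short of 2-fold. Thinned shares were 10.4% of classical monocytes, 28.8% of control tumor monocytes and 47.0% of Treg-depleted monocytes (unthinned 30.6%, 66.2% and 84.3%). The same share was 1.27% in blood NK/T-gated cells (2 of 158 cells; median 1430.5 UMIs, against 3844 in classical monocytes).

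**Figure D1:**
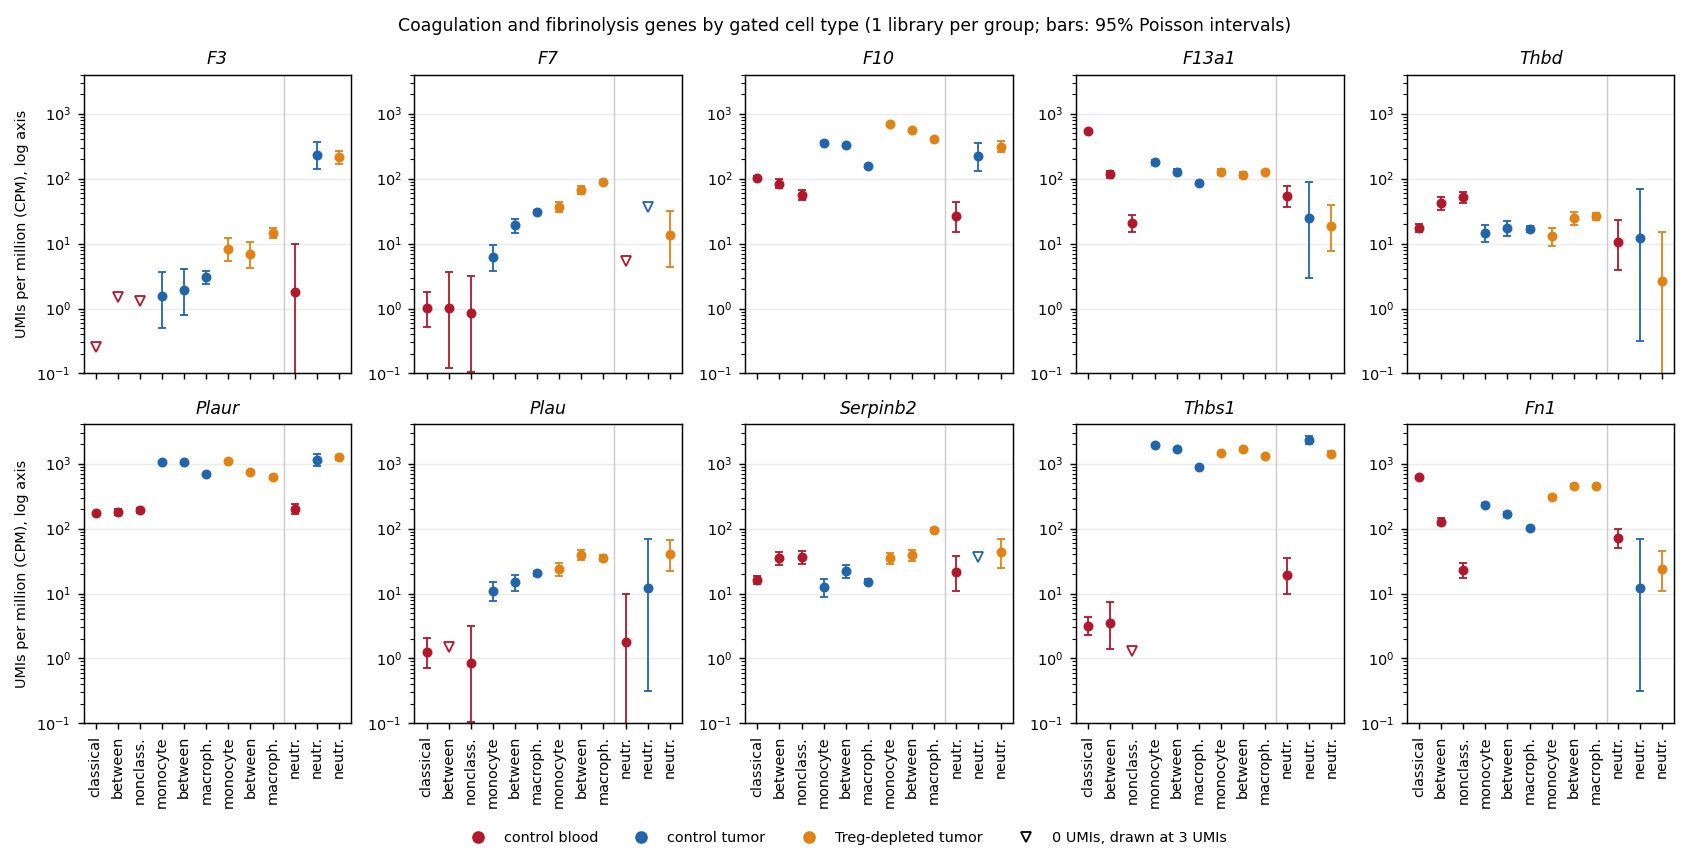
CPM (log axis) of the 10 genes in gated classes of the 3 libraries, 1 panel per gene, with 95% Poisson intervals; open triangles mark 0 UMIs, drawn at the CPM of 3 UMIs. F3 is highest in the tumor neutrophils at the right of its panel (234 and 215 CPM, the former with 12 of its 19 UMIs in 1 cell). F13a1 and Fn1 are highest in blood classical monocytes (544 and 630 CPM), and Thbs1 is near 1000 CPM or more in tumor classes and at most 19.6 CPM in the blood classes shown.

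Thbd (ENSMUSG00000074743, chr2:148404466-148408188, a single-exon gene), the thrombin receptor of the anticoagulant pathway, was highest in nonclassical blood monocytes. It stood at 17.3 CPM (15 to 19.9) in classical, 41.4 in in-between and 51.5 (42.7 to 61.7) in nonclassical cells, a 2.98-fold difference between the end classes. Tumor classes were at or near the classical level: 14.6 and 16.8 CPM in control monocytes and macrophages, 12.9 and 26.2 in those of the Treg-depleted tumor. In thinned cells 5.98% of nonclassical and 1.79% of classical monocytes had a Thbd UMI (unthinned 11.7% and 6.41%), at median depths of 2077.5 and 3844 UMIs. Blood neutrophils, with a median of 2090 UMIs, had 0.472%.

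In the plasminogen system, the urokinase gene and its receptor gene were higher in tumor cells than in blood monocytes. The inhibitor Serpinb2 was not higher in the control tumor, while Treg-depleted macrophages had 94.3 CPM against 35.9 in nonclassical monocytes. Plaur (ENSMUSG00000046223, chr7:24462484-24475968) was level across blood monocytes, with 173 CPM (165 to 180) in classical, 179 in in-between and 190 (173 to 209) in nonclassical cells. Control tumor monocytes had 1052 CPM, 6.10-fold the classical level, and macrophages 691, 4.00-fold. The Treg-depleted tumor was close to the control tumor, at 1091 and 628 CPM, with log2 ratios of 0.05 (-0.02 to 0.12) for monocytes and -0.14 (-0.18 to -0.09) for macrophages. Tumor neutrophils were as high as tumor monocytes, with 1093 CPM in the neutrophil cluster 12 of the Treg-depleted tumor and 1158 in that of the control tumor. Levels in other control tumor cells varied. The 63 pDC cells, plasmacytoid dendritic cells, had 1177 CPM and a thinned share of 66.7%, against 58.1% of monocytes (unthinned 93.7% and 92.5%; medians 4884 and 4878 UMIs). The cDC2, cDC1 and Ccr7-high dendritic cells of that tumor were lower, with 357, 384 and 412 CPM and thinned shares of 26.5%, 27.9% and 22.7% (unthinned 62.7%, 60.3% and 62.5%).

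Plau (ENSMUSG00000021822, chr14:20836660-20843385) had 15 UMIs in classical monocytes (1.27 CPM), 0 in in-between and 2 in nonclassical cells (0.866 CPM). It stood at 10.9 (7.59 to 15.2) and 20.6 CPM (18.9 to 22.4) in control tumor monocytes and macrophages, and at 23.9 (18.8 to 29.9) and 34.8 (31.2 to 38.8) in the Treg-depleted tumor. All tumor intervals lie above those of blood classical monocytes (0.709 to 2.09). The difference between tumors was 2.19-fold in monocytes and 1.69-fold in macrophages.

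Serpinb2 (ENSMUSG00000062345, chr1:107511423-107535478), the intracellular plasminogen activator inhibitor also called PAI-2, moved with Thbd in blood. It had 16.4 CPM (14.2 to 18.9) in classical, 34.9 in in-between and 35.9 (28.6 to 44.6) in nonclassical monocytes. Serpinb10, whose annotated span overlaps it on the same strand, had 107 CPM in classical and 177 in nonclassical cells. Reads that could belong to either gene are a limit for the blood values, whereas Serpinb10 was at 0.520 to 10.1 CPM in the tumor classes. Serpinb2 stood at 12.5 (8.90 to 17.0) and 15.3 CPM (13.8 to 16.8) in control tumor monocytes and macrophages, and at 35.2 (29.0 to 42.4) and 94.3 (88.3 to 101) in the Treg-depleted tumor. The macrophage difference between tumors was 6.17-fold, and the thinned share was 4.60% (3.77 to 5.54) against 0.749% (0.452 to 1.17), with 8.48% and 2.68% unthinned.

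Those Serpinb2 UMIs came from few cells. In the control tumor lineage 95 of 3723 cells held all 519 UMIs, the 10 highest cells held 52.4%, and 1 cell had 76. In the Treg-depleted lineage 251 of 3588 cells held 1133 UMIs and the 10 highest held 32.3%. In blood, where 311 cells held 346 UMIs, the 10 highest held 7.23%. The Poisson intervals on the tumor CPM values do not cover this spread between cells. Cluster 3 of the Treg-depleted tumor, which was also the F3 cluster, had 184.8 CPM and 81.6% of the lineage's Serpinb2 UMIs, and cluster 1 had 12.7 CPM.

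**Figure D2:**
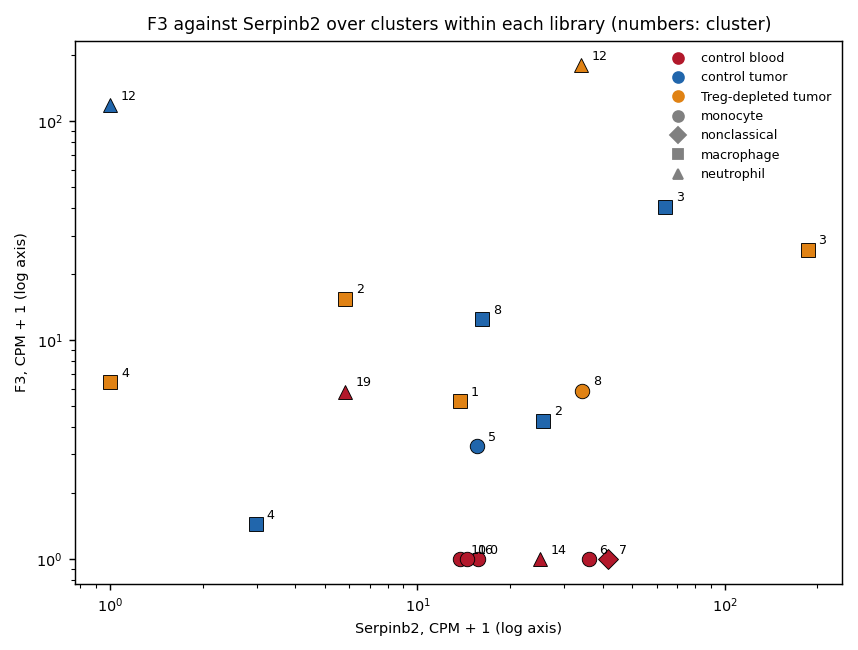
CPM + 1 of F3 against Serpinb2 (log axes) in each cluster of each library with a monocyte, macrophage or neutrophil name; numbers are clusters and marker shapes the named type. Cluster 3 of either tumor lies to the upper right (Serpinb2 62.8 and 184.8 CPM, F3 39.7 and 24.8 CPM), and the tumor neutrophil cluster 12 has the highest F3 (117 and 179 CPM). In the control tumor, cluster 3 is 55 cells with 19 Serpinb2 and 12 F3 UMIs.

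F13a1 and Fn1 were the 2 genes that marked classical monocytes of blood. F13a1 (ENSMUSG00000039109, chr13:36867178-37050244), the transglutaminase of clotting, had 544 CPM (531 to 558) in classical, 117 in in-between and 20.8 (15.3 to 27.6) in nonclassical cells, 26.2-fold lower. Fn1 (ENSMUSG00000026193, chr1:71585520-71653200) had 630 CPM (616 to 645), 128 and 23.0 (17.2 to 30.0), 27.5-fold lower. In thinned cells 38.3% of classical monocytes had an F13a1 UMI and 40.5% an Fn1 UMI, against 1.63% and 1.74% of nonclassical cells (unthinned 74.6% and 72.5% against 4.02% and 5.22%). The 158 NK/T-gated blood cells, with a median of 1430.5 UMIs, had 1 F13a1 and 4 Fn1 UMIs, or 4.06 (0.103 to 22.6) and 16.2 CPM (4.42 to 41.6). At a free-RNA share of 2.88%, free RNA would give nonclassical cells 8.45 CPM of F13a1 and 14.4 of Fn1, both under the intervals of their 20.8 and 23.0 CPM. Blood cDC2 cells also had F13a1 and Fn1, at 140 and 111 CPM. Levels also differed between blood clusters named classical, taken over all cells of the cluster and not the gate. Cluster 0 had 655 and 806 CPM, and cluster 16 had 492 and 447. Cluster 6 had 192.5 and 278, and cluster 10, led by Retnla and MHC class II genes, 266.5 and 159.5.

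In the control tumor F13a1 and Fn1 were lower than in blood classical monocytes, at 177 (163 to 192) and 234 CPM (217 to 251) in monocytes and 85.4 (81.9 to 89.0) and 101 (97.2 to 105) in macrophages. They diverged in the Treg-depleted tumor. F13a1 stayed at 127 (115 to 140) and 126 CPM (119 to 133), whereas Fn1 reached 305 (286 to 325) and 445 (432 to 458). Fn1 was thus 4.41-fold higher in macrophages of the Treg-depleted than of the control tumor and F13a1 1.47-fold, and the thinned Fn1 share was 26.3% against 7.18% of macrophages (unthinned 49.5% and 28.7%). Cluster 1 held 61.9% of the Treg-depleted lineage's Fn1 UMIs at 626 CPM, above 288 in cluster 3 and 214 in cluster 8, the cluster of monocytes.

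Thbs1 (ENSMUSG00000040152, chr2:118111876-118127133), the gene of a platelet- and matrix-derived glycoprotein that binds CD36 and CD47, separated tumor from blood most widely of the 10 genes in the control samples. Blood classical monocytes had 38 UMIs (3.21 CPM, 2.27 to 4.41) and nonclassical monocytes 0. Control tumor monocytes had 1938 CPM and macrophages 892, and those of the Treg-depleted tumor 1471 and 1299. Control tumor monocytes were 604-fold above blood classical monocytes (log2 ratio 9.24, 8.78 to 9.74). The size of that fold depends on the blood level, and free RNA of the blood library held Thbs1 at 91.6 CPM, which at the estimated free-RNA share of 3.32% would give 3.04 of the 3.21 CPM. In control tumor monocytes the same estimate, a share of 13.9%, gives 166 of the 1938 CPM. Both shares were estimated from neutrophil marker genes. After thinning, 71.0% of control tumor monocytes had a Thbs1 UMI, against 13.2% of cDC2 and 6.35% of pDC cells of that tumor (unthinned 90.3%, 32.4% and 11.1%). The pDC cells had a median depth of 4884 UMIs, close to the 4878 of monocytes. In-between cells had 1654 and 1666 CPM in the 2 tumors, the latter above the 1471 of monocytes. Tumor neutrophils had Thbs1 as well, at 2291 CPM in the 40 control and 1413 in the 176 Treg-depleted cells.

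**Figure D3:**
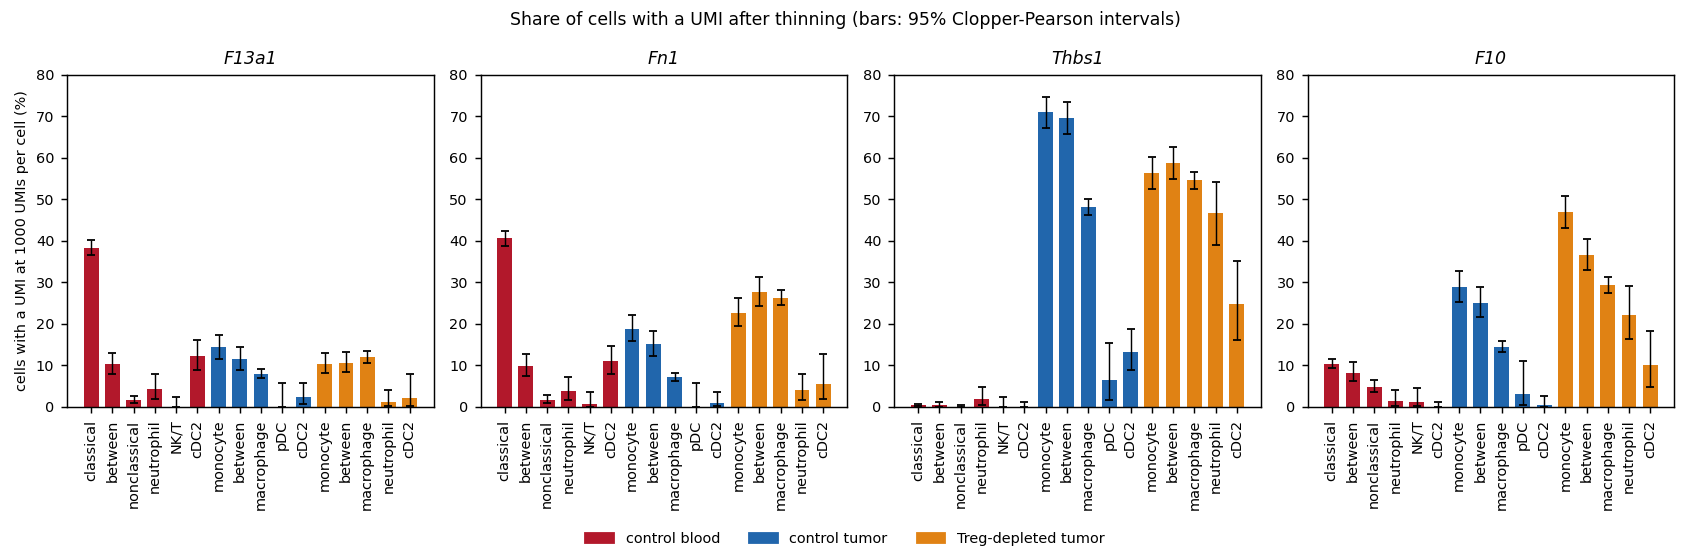
Percent of cells with a UMI of F13a1, Fn1, Thbs1 or F10 after thinning to 1000 UMIs per cell, by library and gated class, with 95% Clopper-Pearson intervals. F13a1 and Fn1 are at 38.3% and 40.5% in classical monocytes and below 2% in nonclassical ones, while Thbs1 is at 46.6% to 71.0% in tumor monocytes, in-between cells, macrophages and Treg-depleted neutrophils and at most 1.89% in blood.

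Members were also counted among all genes with at least 20 UMIs in a comparison. Of 7 tested between nonclassical and classical monocytes, 2 were higher in nonclassical cells (Thbd, Serpinb2; 6.55% of 9897 genes were) and 3 lower (F13a1, Fn1, Thbs1; 7.52% were). The Thbs1 value is a bound against 0 UMIs and ends when cells are thinned. Between control tumor monocytes and blood classical monocytes, 5 of 9 were higher (Thbs1, Plau, F7, Plaur, F10; 10.6% of 10020 genes) and F13a1 and Fn1 lower (27.8%). Between control tumor macrophages and classical monocytes, 5 of 10 were higher (Thbs1, F7, Plau, F3, Plaur; 16.9% of 11317 genes) and the same 2 lower (21.8%). Against nonclassical monocytes, the control tumor lineage was higher for 8 of 10 (15.3% of 11105 genes) and lower for Thbd and Serpinb2 (23.7%). Here the F3 log2 bound of 1.10 becomes 0.34 with doubled gate thresholds, and the Serpinb2 ratio of -1.19 becomes -0.86 with median scaling. F13a1 and Fn1 thus lay on opposite sides of the 2 blood types, 3.07-fold and 2.70-fold lower in tumor monocytes than in classical cells and 4.76-fold and 5.27-fold higher in the tumor lineage than in nonclassical cells. These comparisons share blood or tumor cells and are not independent of each other. The median log2 ratio of all genes was -0.43, -0.24 and -0.26 in the 3 tumor-to-blood comparisons, and that of the tested members 1.80, 1.30 and 2.13. Among genes with at least 100 UMIs in both classes the median was -0.006, -0.31 and -0.33. The 10 genes were chosen with earlier results of these data known, so the member medians do not test a shift of the set.

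**Figure D4:**
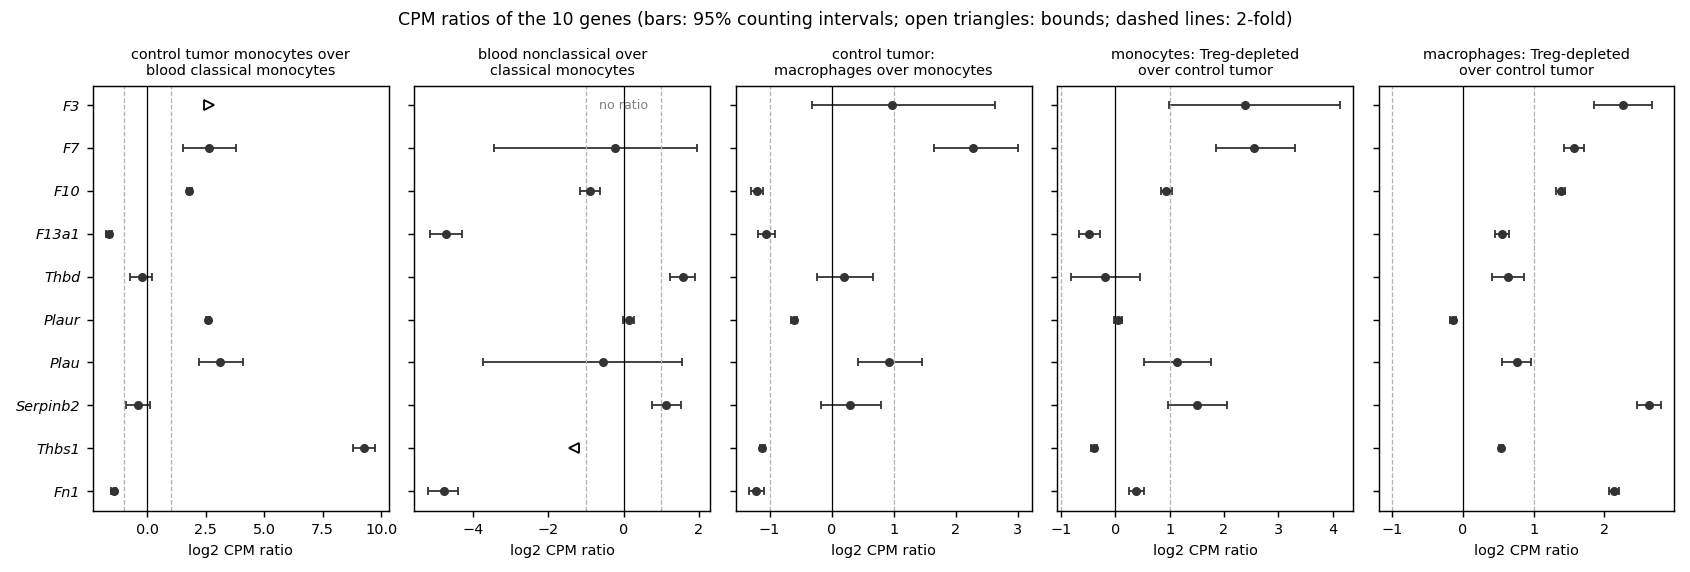
log2 CPM ratios of the 10 genes in 5 comparisons, with 95% counting intervals; open triangles are bounds against 0 UMIs and dashed lines mark 2-fold. F13a1 and Fn1 lie left of 0 for nonclassical cells, for tumor monocytes against blood and for control tumor macrophages against monocytes, while Thbs1 lies at 9.24 in the first panel.

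Within the tumors, macrophages of the control tumor were lower than monocytes for 4 of 10 genes (Fn1, F10, Thbs1, F13a1; 4.32% of 10817 genes were lower) and higher for F7 alone (14.6%). In the Treg-depleted tumor 3 of 10 were higher in macrophages (Serpinb2, F7, Thbd; 12.2% of 9681 genes) and 0 lower (4.64%). Between tumors, monocytes of the Treg-depleted library were higher for 4 of 10 (F7, F3, Serpinb2, Plau; 6.80% of 8233 genes) and 0 were lower (4.76%). Macrophages were higher for 5 of 10 (Serpinb2, F3, Fn1, F7, F10; 9.53% of 11131 genes) and 0 lower (10.7%), and over the whole lineage the same 5 were higher (8.37% of 11469 genes) and 0 lower (9.09%). Several of these calls end under 1 or more alternatives. In the control tumor the F13a1 log2 ratio of -1.05 becomes -0.99 with types from clusters and -0.85 in thinned cells, and those of F10 and Thbs1 become -0.69 and -0.81 without cells holding platelet-list UMIs. That list includes Pf4, at 728 CPM in control tumor macrophages and 25.5 in monocytes. Leaving such cells out therefore also changes which macrophages are compared, and the part of platelet RNA cannot be read from it. In the Treg-depleted tumor the Thbd ratio of 1.02 becomes 0.68 in thinned cells. Between tumors the 2.83-fold Serpinb2 difference in monocytes becomes a log2 ratio of 0.49 with doubled gate thresholds, and the F10 log2 ratio of 1.34 in the lineage becomes 0.94 in thinned cells. Control tumor cells serve as the reference in all 3 comparisons between tumors.

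The other 56 genes of the pathway list were all found in the libraries. Of 28 tested between nonclassical and classical monocytes 7 were higher and 3 lower, where 6.55% and 7.52% of all genes were. Of 32 tested between control tumor macrophages and classical monocytes 11 were higher and 5 lower, where 16.9% and 21.8% of all genes were. Between the 2 tumor lineages 9 of 35 were higher in the Treg-depleted tumor and 3 lower, where 8.37% and 9.09% of all genes were. In the last comparison the 3 lower genes (F5, Vwf, Plat) are near the share over all genes. In the one before it the 5 lower genes (F5, Ggcx, Pros1, Itgb3, Itga4) are somewhat below that share, with few genes counted. The genes given values next are examples, and all had more CPM in macrophages of either tumor than in classical monocytes. Procr, the endothelial protein C receptor, had 1 UMI in classical monocytes, 50.9 CPM in control and 44.8 in Treg-depleted macrophages. Tgm2, a tissue transglutaminase, had 4.05 CPM in classical and 59.8 in nonclassical monocytes, 284 in control and 685 in Treg-depleted macrophages. Cd36, a receptor of thrombospondin, had 8.19 CPM in classical and 202 in nonclassical monocytes, 171 in control and 552 in Treg-depleted macrophages. S100a10, a plasminogen receptor subunit, had 723 CPM in classical, 135 in nonclassical, 909 in control macrophage and 1744 in Treg-depleted macrophage cells. Of the plasma factors, 2 of 13 on the coagulation factor list reached 20 UMIs in the nonclassical to classical comparison, F5 and Vwf. None of the 4 protease-activated receptor genes did in that comparison. Between tumors F2rl2 reached 20 UMIs in macrophages and in the lineage, and was higher in the Treg-depleted tumor in both.

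As a description over 24 gated classes of at least 50 cells that share libraries, Pearson correlations of log2(CPM + 5) named the genes most like each member. Fn1 and F13a1 were the closest to each other (r = 0.912), followed for both by Ms4a8a (0.910 and 0.908). Thbs1 was closest to Ier3 (0.984), Slc7a11 (0.974) and Cxcl2 (0.972), and Plaur to Ptafr (0.931). F7 was closest to Lrp12 (0.978) and Mmp13 (0.954), F10 to Msr1 (0.954) and Plau to Edn1 (0.951). F3 was closest to Fam71f2 (0.971) and Il23a (0.956), Thbd to Lrp1 (0.927), and Serpinb2 to Soat1 (0.876).

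Markers of other cells were measured beside these results. The 10-gene platelet list summed to 3.04 CPM in classical and 0.866 in nonclassical monocytes, and to 735 and 928 CPM in control and Treg-depleted macrophages, of which Pf4, a gene that macrophages also express, gave 728 and 894. In tumor monocytes, with Thbs1 at 1938 and 1471 CPM, the list summed to 28.7 and 43.7 CPM. The 7-gene fibroblast list was at 0.520 to 0.934 CPM in the tumor monocytes and macrophages. The melanoma list summed to 14.0 and 13.8 CPM in tumor monocytes and 32.9 and 116 in macrophages of the control and Treg-depleted tumor, and 34 Treg-depleted cells of cluster 2 were led by Dct and Pmel. Cluster 2 had 53.0 CPM of Fn1 and 14.5 of F3. The 11-gene neutrophil list summed to 41.3 and 151 CPM in control and Treg-depleted macrophages, against 38439 and 47964 in the neutrophil classes. The parts of neutrophil and melanoma RNA in the tumor differences were not tested.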

How the data were processed

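Single-cell RNA of sorted myeloid cells was measured in 3 libraries, 1 per group, with the 10x 3′ v2 kit, per the labels' protocols. Per the submitters' processing notes, Cell Ranger 1.2 and mm10 were used. Each count matrix deposited by the authors has UMI counts, in whole numbers, of 27998 genes in 737280 barcodes. The 10 genes and all gene lists were chosen with earlier results of these data known.

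Cells were called anew from at least 1000 UMIs, 400 genes and at most 10% mitochondrial UMIs. Each was gated on marker lists per 10000 UMIs: lineage lists of at least 50, then classical against nonclassical (blood) or macrophage (tumor) lists differing by 2-fold. Thresholds were set after the marker sums were seen, without the 10 genes. Clusters (scanpy 1.11.5, 2000 variable genes, resolution 1) left the 10 genes out. Marked doublets (246, 158 and 157 cells) were kept and left out in an alternative. Counts were summed per class; ratios have conditional binomial intervals, and against 0 UMIs a floor of 3 over the class was used. Genes with at least 20 UMIs in the compared classes were tested against 2-fold. All 10 genes, the pathway genes with at least 20 CPM in a class and the 3 most alike genes could be named, and not all are. Some further pathway genes are named without values, whatever their level. Ratios and intervals were checked on simulated counts. Gene positions are from GENCODE M21 (GRCm38), which held 27722 of the identifiers. Alternatives are given in the closing section.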

Additional observations from a re-analysis of the deposited data

Results flagged for a closer look

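Of the 10 genes, 3 had ratios that point in opposite directions in 2 groups. Each group is 1 library and none of these differences was tested. The log2 CPM ratio of Fn1 in macrophages over monocytes was -1.21 for control tumor cells and 0.55 for Treg-depleted tumor cells. The log2 ratio of F13a1 in the Treg-depleted over the control tumor was -0.48 in monocytes and 0.56 in macrophages. For Thbs1 the same ratio was -0.40 in monocytes and 0.54 in macrophages. Counting intervals of all 6 values lie on one side of 0. The F13a1 and Thbs1 ratios and the Fn1 ratio of 0.55 are below 2-fold.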

How the results depend on the processing

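Each library is a single sample, so the spread between animals, and with it the significance of any difference, cannot be judged here. No paired analysis was possible because each group has 1 library. Of 51 ratios past 2-fold, none reversed under the 9 alternatives and 42 stayed past 2-fold in all of them. Those that did not were mostly near 2-fold or at few UMIs (F3 against nonclassical cells, Thbs1 in blood, F13a1, Thbs1 and F10 between control tumor classes). Depth limits F3, F7 and Plau in blood, with at most 15 UMIs in a class.

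Counts of genes moved as follows. With types from clusters, 2 genes were higher in control macrophages than monocytes and 5 in Treg-depleted macrophages. With doubled gate thresholds, 3 were higher in control macrophages than monocytes and 2 in Treg-depleted than control monocytes. In the latter only the Serpinb2 ratio fell under 2-fold. With median scaling, 1 was lower in the tumor lineage than in nonclassical cells, and 3 were higher in control macrophages than monocytes. With ambient RNA subtracted that count was 3. Without cells holding platelet-list UMIs it was 2, with 2 lower, but that list includes Pf4, which macrophages also express. With thinning, 3 were higher in tumor monocytes than classical cells and 2 lower in control macrophages. In the first of these none of the 5 ratios fell under 2-fold, since a gene that misses the minimum of 20 UMIs also leaves these counts. Without the minimum of 20 UMIs, the share of all genes past 2-fold rose from 14.1% to 29.2% between blood monocyte types, from 18.9% to 37.4% and from 16.9% to 30.7% between macrophages and monocytes of the control and Treg-depleted tumor, and from 11.6% to 26.0%, 20.2% to 31.6% and 17.5% to 28.7% between tumors for monocytes, macrophages and lineage. Without thinning, shares of cells with a UMI were 90.3% (Thbs1) and 92.5% (Plaur) of control tumor monocytes, 74.6% (F13a1) and 72.5% (Fn1) of classical monocytes, 64.6% (F10) of Treg-depleted macrophages and 22.7% (F3) of Treg-depleted neutrophils.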

Other observations

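Dendritic cells of the tumors carried some of the 10 genes. Ccr7-high dendritic cells, a mature migratory state, had Thbs1 at 503 CPM (465 to 543) in 128 control tumor cells and 848 (779 to 922) in 103 Treg-depleted cells, and Fn1 at 53.5 and 173 CPM. Plau stood at 10.9 CPM in the control and 43.9 (29.4 to 63.1) in the Treg-depleted cells of this class, the highest Plau level among classes of at least 50 cells. cDC1 cells of the control tumor had Plau at 28.4 CPM and F10 at 115 CPM in 68 cells. The 12-gene macrophage list summed to 6109 and 5314 CPM in the Ccr7-high cells of the control and Treg-depleted tumor, against 15761 and 11455 in macrophages, with all 12 genes above 0. Among them C1qa stood at 657 and 264 CPM (macrophages 2495 and 434) and Arg1 at 227 and 2519 (macrophages 340 and 6545). Pf4 stood at 403 and 641 CPM in the same cells. The part of macrophage RNA in the Thbs1, Fn1 and Plau values was not tested. These values rest on 1 library each and on small classes, and free RNA of the tumor libraries held Thbs1 at 1194 and 1629 CPM.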
